A study of Mus musculus with 52 samples.

Results

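Glutamate, GABA and glycine receptor subunits were followed at the RNA level in purified cells and in whole spinal cord of mice that carry mutant human SOD1 as a model of amyotrophic lateral sclerosis, and of their controls. The members were the genes whose symbols begin with the usual stems of ionotropic and metabotropic glutamate receptors (Gria, Grik, Grid, Grin, Grm), of GABA-A and GABA-B receptors (Gabr, Gabbr) and of glycine receptors (Glra, Glrb). There were 52 of 23697 listed genes in each of 6 tables, 26 excitatory and 26 inhibitory by the transmitter they bind. Ribosome-bound RNA was taken from bacTRAP mice, in which 1 cell type makes a ribosomal protein fused to EGFP and its ribosomes are pulled down through EGFP. The labels do not name the promoter that drives the tag or the SOD1 transgene, nor do they say how many animals went into a library.

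All control mice were non-transgenic for SOD1, and the transgenic mice carried SOD1 with the G37R or the G85R substitution. At disease onset, with no age in the labels, motor neurons gave 4 libraries per genotype (control and G37R) and astrocytes 6 control and 4 G37R libraries, all from males. Oligodendrocytes came from males at onset at 8 months (5 control and 4 G37R). They also came from both sexes at an early symptomatic stage at 11 months, with 5 control libraries (2 male, 3 female), 3 G37R (1 male, 2 female) and 3 G85R (1 male, 2 female). Whole spinal cord came from onset males at 8 months (4 control and 4 G37R) and from early symptomatic mice at 11 months (3 and 3, each with 1 male and 2 females by the labels).

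Ionotropic receptors are ligand-gated channels. AMPA, kainate and NMDA receptors are tetramers that pass cations and excite, while GABA-A and glycine receptors are pentamers that pass chloride and mostly inhibit in adult spinal cord. The Gria2 subunit, once edited, makes AMPA receptors nearly impermeable to calcium, and motor neurons are known for a low share of it. NMDA receptors need Grin1 together with Grin2 or Grin3 subunits. Metabotropic glutamate receptors and GABA-B receptors act through G proteins. Glia hold some of these receptors too.

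Levels are given in FPKM-equivalents, a length-scaled abundance explained with the processing, as means ± SD over libraries. Changes are mutant minus control on the log2(value + 1) scale with their SE, which understates the change of low genes, and every p is limma's. The mouse Sod1 gene, the endogenous counterpart of the transgene, ran from 1410 to 1540 in control and from 1290 to 1434 in G37R motor neurons. It passed the threshold, an adjusted p of 0.05, in no comparison, and since the human transgene was not listed apart, the genotype labels could not be checked through it. Summed motor neuron markers ran from 2724 to 3278 in control motor neurons against 154 to 243 in 8-month control cord. Summed astrocyte markers ran from 14750 to 17260 in control astrocytes against 3300 to 3848 in cord. Oligodendrocyte markers ran from 34590 to 39970 in 8-month control oligodendrocytes against 13040 to 15370 in cord, so each purification held its own cell type. Other cell types were not absent, and interneuron markers, which include Gad1 and Penk, summed to 180 to 205 in control motor neurons and 190 to 440 in 8-month control oligodendrocytes. In control astrocytes, oligodendrocyte markers summed to 6336 to 8930. Oligodendrocyte precursor markers there summed to 644.5 to 723.5, against 239.8 to 259.9 in 8-month cord. Astrocyte markers in 8-month control oligodendrocytes summed to 4031 to 4464, above those of cord, with Glul at a mean of 3330. Across genes, libraries within a group had correlations of r = 0.932 to 0.989, and the deepest library of a table was 1.22 to 1.65 times as deep as the shallowest. In 11-month cord, 2 of 6 libraries, both controls, went against their sex labels by Xist and Ddx3y. In control library 1 of 11-month oligodendrocytes, the myelin gene Mbp was listed at 0.

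In control motor neurons, the leading glutamate receptor transcripts were Grin1 (68.5 ± 6.5, n = 4), the obligatory NMDA receptor subunit, and the AMPA receptor gene Gria4 (67.6 ± 4.4). Their ranges, 60.7 to 74.7 and 63.6 to 73.5, overlapped. Gria3 followed at 27.4 ± 0.39, well below both. Gria1 (9.88 ± 0.96) and Gria2 (8.65 ± 0.29) lay lowest among AMPA receptor genes, and their ranges overlapped at their edges. Gria2 therefore made up 7.63% ± 0.51 (SD, n = 4) of the summed AMPA receptor transcripts in motor neurons, against 26.9% ± 0.46 (n = 4) in 8-month cord. In control astrocytes that share was 6.39% ± 1.5 (n = 6), and in 8-month control oligodendrocytes 12.2% ± 0.90 (n = 5). Gria4 held the largest share in motor neurons, 59.5% ± 1.9, and in oligodendrocytes, 48.6% ± 3.2. Astrocytes divided their AMPA receptor transcripts mainly between Gria4 (43.8% ± 3.2) and Gria1 (39.8% ± 4.7), whose ranges overlapped. Shares are taken within a library, so the separate scaling of the tables does not touch them.

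Among NMDA receptor genes, Grin3b had its highest level in motor neurons. It encodes a glycine-binding subunit that lowers calcium permeability and is known from somatic motor neurons. It reached 21.8 ± 2.8 in control motor neurons against 4.40 ± 0.094 in 8-month cord, 0.97 in astrocytes and 2.34 in 8-month oligodendrocytes. Within the summed NMDA receptor transcripts Grin3b took 21.2% ± 1.2 in motor neurons, 2.67% ± 0.096 in cord, 3.45% ± 0.55 in astrocytes and 3.97% ± 0.23 in oligodendrocytes. No motor neuron library (20.4% to 22.9%) came near the highest of the others. The related Grin3a stood at 4.90 ± 0.64 in motor neurons and 12.6 in cord. Of the glutamate-binding Grin2 genes, Grin2d (5.13) led in motor neurons, followed by Grin2c (1.32), Grin2b (0.538) and Grin2a (0.454). Astrocytes had Grin2c as their leading Grin2 gene at 7.71 ± 2.3, above its cord level of 5.41 ± 0.48, with astrocyte libraries from 5.13 to 10.1 that overlapped those of cord, from 4.89 to 6.06. In 8-month oligodendrocytes Grin1 alone made up 89.1% ± 0.17 of NMDA receptor transcripts. Its locus overlaps E130003G02Rik and Lrrc26, so reads of Grin1 are uncertain in part.

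For inhibitory receptors, motor neurons led with Glrb (292 ± 15, n = 4), the glycine receptor subunit that binds gephyrin at synapses, against 150 ± 4.3 in 8-month cord. Of the ligand-binding glycine receptor genes, Glra1, the main adult form, was at 24.8 ± 3.6 in motor neurons and 117 ± 6.3 in cord. Glra2 (4.6), Glra4 (0.54) and Glra3 (0.51) lay below it in motor neurons. Glra1 made up 81.2% ± 4.4 of the Glra transcripts in motor neurons and 90.2% ± 0.67 in cord. Gabbr1, the GABA-binding subunit of the GABA-B receptor, was at 138 ± 6.8 in control motor neurons, 118 ± 24 in astrocytes and 131 ± 0.71 in cord, with overlap between astrocytes and the others. It was at 53.9 ± 4.9 in 8-month oligodendrocytes, below all of them. Its partner Gabbr2, which couples to G proteins, stood at 11.4 in motor neurons, 5.7 in astrocytes and 40.2 in cord.

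Among GABA-A alpha genes, control motor neurons led with Gabra5 (50.0 ± 2.1), known in hippocampus for tonic inhibition, and Gabra2 (42.7 ± 5.2), whose libraries ran from 35.8 to 48.3 and so overlapped those of Gabra5, from 48.0 to 52.2. Gabra3 (19.8) and Gabra4 (0.96) stood below both, and Gabra6 was listed at 0. Gabra5 took 41.8% ± 2.5 of alpha transcripts in motor neurons and 21.0% ± 1.6 in cord. Gabra2 took 53.5% ± 6.5 in astrocytes, and Gabra3 took 37.7% ± 1.3 in oligodendrocytes next to 33.2% ± 2.0 for Gabra5.

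The leading members differed by table. In control astrocytes they were the kainate receptor gene Grik5 (23.7 ± 2.8, n = 6), Grin1 (17.1 ± 2.0) and Gria4 (17.0 ± 1.8) among excitatory members, and neighbours in this order had overlapping ranges. Gabbr1, Glrb (45.8 ± 2.8) and Gabra2 (31.0 ± 7.9) led the inhibitory ones there. In 8-month control oligodendrocytes, Grin1 (52.6 ± 9.8, n = 5) and Grm3 led the excitatory members, with overlap between them, before Gria4 (20.5 ± 1.9). Glrb (144 ± 17) and Gabbr1 led the inhibitory ones. In 8-month cord, Grin1 (128 ± 2.8, n = 4), Gria4 (61.8 ± 1.5) and Gria2 (49.4 ± 2.6) led without overlap, beside Glrb, Gabbr1 and Glra1. The 11-month control libraries of oligodendrocytes and of cord had the same first 3 excitatory members as their 8-month counterparts, in the same order.

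Most members lay below cord in all purified cells. Of the 25 excitatory members with a control mean of at least 1 in any table, 3 were above 8-month cord in motor neurons, 1 in astrocytes and 1 in oligodendrocytes. Of 20 such inhibitory members, 5, 2 and 1 were above. Over all 14600 genes with such a level, 43.3%, 45.1% and 39.5% were above cord in the same order. Median log2 ratios to cord in motor neurons were -0.91 for excitatory and -0.84 for inhibitory members, against -0.19 over all those genes. The tables were normalized separately and the factor that puts them on 1 scale is assumed for purified cells, so these ratios are descriptions. Of the 52 members, 38 passed the minimum mean level of 1 in motor neurons, 31 in astrocytes, 35 in each oligodendrocyte table and 43 in each cord table. Gabra6, Gabre, Gabrp, Gabrr1, Gabrr3, Glra4 and Grm6 passed in no table.

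**Figure D1:**
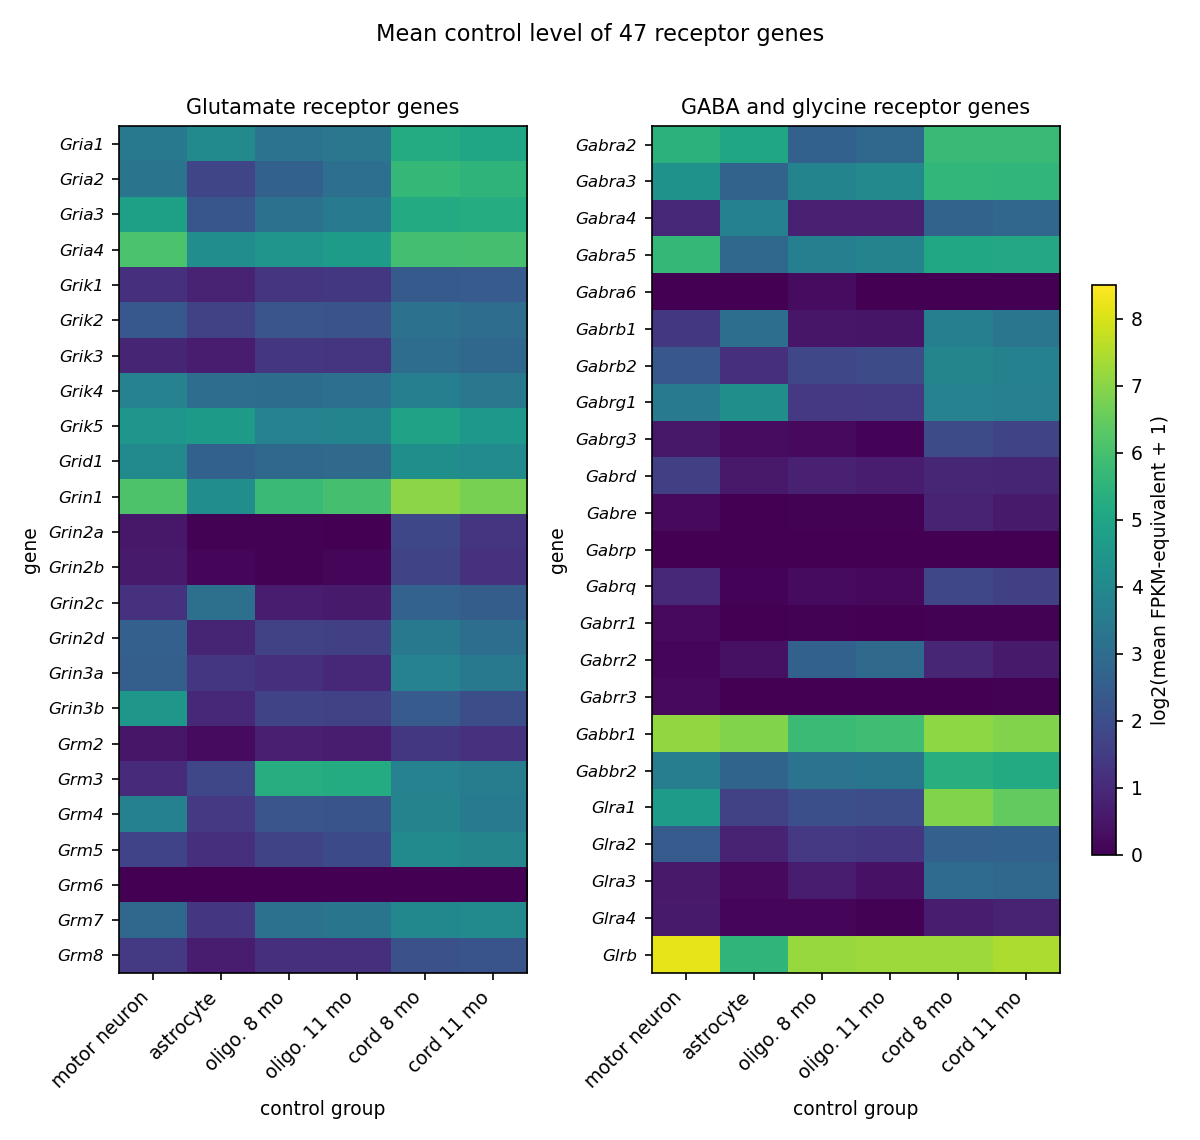
Colour gives log2(mean control level + 1) in FPKM-equivalents for 24 glutamate receptor genes (left) and 23 GABA and glycine receptor genes (right), with 1 column for each control group. Grin3b and Gabra5 stand out in motor neurons, Gabra4 and Gabrg1 in astrocytes, and Grm3 and Gabrr2 in oligodendrocytes.

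GABA-A receptor genes lie in clusters on a few mouse chromosomes, and control cells differed in the share they took from the cluster on chromosome 5. Coordinates are those of the files, on mm9. The chromosome 5 cluster holds Gabrg1 (71142285 to 71233856), Gabra2 (71352295 to 71487088), Gabra4 (71960972 to 72049547) and Gabrb1 (72091254 to 72528483). These 4 genes held 70.2% ± 5.0 (SD, n = 6) of all transcripts from clustered GABA-A genes in control astrocytes, with libraries from 62.1% to 76.3%. The same share was 24.5% ± 2.1 (n = 4) in motor neurons, 10.9% ± 1.8 (n = 5) in 8-month oligodendrocytes and 28.3% ± 2.4 (n = 4) in cord, so no library of the other cells reached the lowest astrocyte library. Gabra4, at 12.2 ± 1.4 in astrocytes, was 2.24 times its cord level, and Gabrg1, at 17.7 ± 4.8, was 1.41 times its cord level. Gabrb1 and Gabra2 were 0.632 and 0.591 times.

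On chromosome 7, Gabrg3 (63979611 to 64642241) and Gabra5 (64663038 to 64765379) stood in astrocytes at 0.078 and 0.189 times their cord level. On chromosome 11, Gabrb2 (42233258 to 42446093) stood at 0.089 times its cord level there. Its neighbour Gabra6 (42119938 to 42134553) was listed at 0 in control astrocytes, motor neurons and cord. In motor neurons Gabra5 was above its cord level, at 50.0 against 32.6, without overlap.

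**Figure D2:**
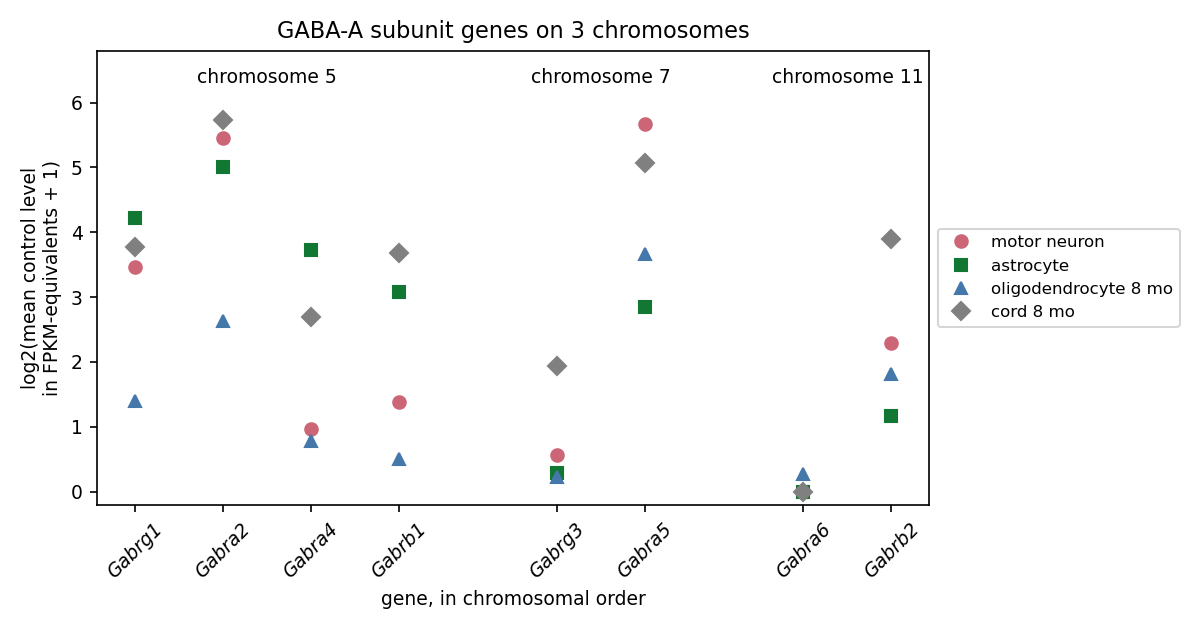
Each point is the mean control level of 1 GABA-A receptor gene as log2(mean + 1) in FPKM-equivalents, with genes in chromosomal order and 1 symbol for each cell type or cord. Astrocyte points lie among or above the others in the chromosome 5 cluster and below cord for the genes drawn on chromosomes 7 and 11, except for Gabra6, listed at 0 in both.

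In oligodendrocytes the pair above cord, among members with a level of at least 1, was Grm3, a metabotropic receptor that couples to inhibitory G proteins, and Gabrr2, a rho subunit known from GABA-gated channels of the retina. Grm3 lies on chromosome 5 at 9485235 to 9725352 and Gabrr2 on chromosome 4 at 33150086 to 33182840, both on mm9. Grm3 was at 38.2 ± 4.7 (n = 5) in 8-month and 36.4 ± 1.4 (n = 5) in 11-month control oligodendrocytes. Its level was 12.8 ± 0.42 in 8-month cord, 2.49 ± 0.45 in astrocytes and 1.04 ± 0.13 in motor neurons, with no overlap between these groups. Gabrr2 was at 5.29 ± 1.4 and 6.62 ± 2.5 in 8-month and 11-month control oligodendrocytes. It was at 0.88 ± 0.21 in 8-month cord, 0.296 in astrocytes and 0.076 in motor neurons. Its neighbour Gabrr1, at 33219530 to 33250563, was at 0.024 in 8-month oligodendrocytes and listed at 0 in every 11-month control oligodendrocyte library.

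Sequences just upstream of these genes are shown because Grm3 and Gabrr2 carry the oligodendrocyte pattern and Gabrr1 is the neighbour of Gabrr2 at or near 0. They are the 250 bases before the RefSeq start on GRCm38.p6, read in the direction of the gene, with a window found for 36 of the 52 members. Grm3 covers chr5:9725353-9725602 on the minus strand, Gabrr2 chr4:33062862-33063111 on the plus strand and Gabrr1 chr4:33132306-33132555 on the plus strand. Capitals mark GGGCGG, the GC box bound by Sp1, on either strand.
Grm3: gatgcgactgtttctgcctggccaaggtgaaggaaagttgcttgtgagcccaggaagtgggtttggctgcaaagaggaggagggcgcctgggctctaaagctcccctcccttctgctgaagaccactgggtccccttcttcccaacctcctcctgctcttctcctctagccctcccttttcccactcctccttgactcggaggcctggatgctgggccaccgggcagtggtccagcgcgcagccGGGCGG
Gabrr2: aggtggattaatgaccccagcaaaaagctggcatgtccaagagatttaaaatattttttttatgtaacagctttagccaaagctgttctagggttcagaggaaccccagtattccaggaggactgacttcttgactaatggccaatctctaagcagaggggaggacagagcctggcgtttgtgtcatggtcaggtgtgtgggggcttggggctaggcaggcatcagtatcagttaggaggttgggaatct
Gabrr1: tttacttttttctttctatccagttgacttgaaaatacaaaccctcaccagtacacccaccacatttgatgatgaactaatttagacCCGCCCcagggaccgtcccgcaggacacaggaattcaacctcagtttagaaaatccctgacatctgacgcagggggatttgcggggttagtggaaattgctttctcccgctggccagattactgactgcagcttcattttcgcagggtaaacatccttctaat
The Grm3 window had 62.4% G and C and 8 CpG dinucleotides, against medians of 52.4% and 6 over 32851 RefSeq windows. The Gabrr2 window had 47.6% and 1 CpG, and the Gabrr1 window 46% and 7. GGGCGG occurred 1 time in Grm3 and 1 time in Gabrr1, while 32.7% of all windows held it. ACAAAG and ACAATG, 6-letter forms of the motif bound by Sox proteins such as Sox10, occurred in none of the 3 windows on either strand, and 16.5% and 10.7% of all windows held them. No matches overlapped.

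In motor neurons at onset, 1 member rose and 4 fell in G37R. The AMPA receptor gene Gria1 was higher, while Gria4, the NMDA receptor genes Grin3a and Grin3b and the GABA-A gene Gabra5 were lower. These were 5 of 38 members that passed the minimum mean level of 1, beside 12.9% of all 12303 genes tested (6.49% higher and 6.37% lower), so the share of members called is near the background. Among 22 excitatory members 1 rose and 3 fell, and among 16 inhibitory ones 1 fell. The median change was 0.01 for excitatory and -0.06 for inhibitory members, against 0.01 over all genes. Groups did not overlap for 11 members, and for 21.5% of all genes.

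Gria1 measured 11.2, 9.79, 9.58 and 8.93 in the control libraries and 11.4, 11.6, 13.3 and 13.4 in G37R. The groups did not overlap but nearly touched, and the change was 0.30 (SE 0.080, adjusted p = 0.0353). Gria4 measured 63.6, 73.5, 65.0 and 68.3 in control and 59.5, 59.8, 53.3 and 59.1 in G37R. Every G37R library lay below every control library, with a change of -0.22 (SE 0.060, adjusted p = 0.0401). Gria4 remained the leading AMPA receptor gene, with 55.8% ± 1.4 of the sum in G37R.

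Grin3b measured 22.1, 25.4, 20.8 and 18.8 in control and 18.3, 17.6, 14.3 and 17.2 in G37R. The lowest control library stood just above the highest G37R library, and the change was -0.35 (SE 0.096, adjusted p = 0.0385). As a share of NMDA receptor transcripts, Grin3b stood at 16.5% ± 2.0 in G37R, from 14.6% to 18.7%, below the 20.4% to 22.9% of control. Grin3a measured 3.95, 5.05, 5.24 and 5.35 in control and 3.03, 3.81, 2.58 and 3.80 in G37R. It changed by -0.46 (SE 0.11, adjusted p = 0.0283), again without overlap. Reads of Grin3a, Grin3b and Gabra5 are uncertain in part, since Ppp3r2, ORF61 and Gm9962 overlap their loci and no source used here states whether counting used strand. The same holds in every table for Grin1, whose locus overlaps E130003G02Rik and Lrrc26. Gabra3, Grid1 and Grm8 overlap microRNA genes.

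Gabra5 measured 51.4, 52.2, 48.4 and 48.0 in control and 43.3, 43.6, 33.4 and 38.5 in G37R, a clear separation with a change of -0.33 (SE 0.079, adjusted p = 0.0259). Glra1 had the largest decline on the log2 scale but did not pass, at 20.1, 24.1, 26.7 and 28.4 in control and 19.5, 19.4, 11.7 and 16.2 in G37R (change -0.56, SE 0.17, adjusted p = 0.0633). Gabra2 (-0.44, SE 0.15, adjusted p = 0.083) did not pass either. Grik3, a kainate receptor gene (0.36, SE 0.11, adjusted p = 0.0565), had a positive value that missed the threshold.

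G37R libraries 3 and 4 held the most transcripts of astrocytes and interneurons. Summed astrocyte markers ran from 593 to 725 in control and were 876, 846, 1519 and 1510 in G37R motor neurons. Oligodendrocyte markers ran from 463 to 519 in control and from 584 to 1016 in G37R, and all 5 microglia markers tested were called higher. Interneuron markers summed to 180 to 205 in control and to 214, 216, 280 and 331 in G37R, with 3 of 9 called higher. Gad1, which makes GABA, was at 16.1 to 21.7 in control and 24.4, 25.4, 42.6 and 45.9 in G37R. Summed motor neuron markers overlapped, at 2724 to 3278 and 2805 to 3230, but the list was split. Calca was called higher (583.6 in control, 908.6 in G37R, change 0.65). Isl2 (-0.31) and Mnx1 (-0.27) were called lower. Chat (-0.16), Slc18a3 (-0.18), Slc5a7 (-0.09), Prph (-0.08) and Isl1 (0.02) were not called. The part of these differences in the receptor changes was not tested, and in bulk samples fewer cells of a type and less RNA per cell cannot be told apart. Without G37R libraries 3 and 4, a choice made after seeing the data, no member passed, while the 5 changes kept their direction at 0.20, -0.17, -0.42, -0.26 and -0.20 for Gria1, Gria4, Grin3a, Grin3b and Gabra5.

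The 5 calls depended on single libraries. Leaving out control library 2 or 3 left 0 calls, control 4 left 1 (Grin3b), G37R 3 left 1 (Gabra5) and G37R 4 left 1 (Grin3a). Leaving out G37R library 1 or 2 gave 8. Without the filter on low values 0 passed.

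**Figure D3:**
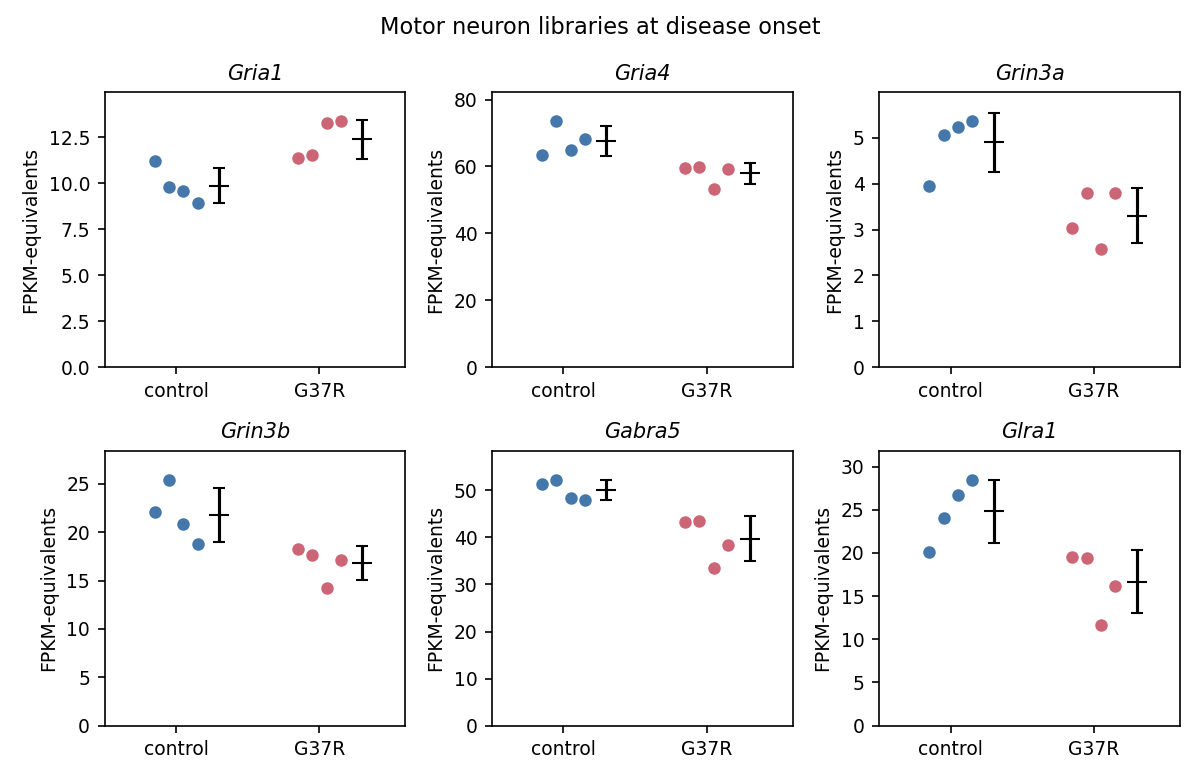
Each point is 1 motor neuron library (4 control, 4 G37R) in FPKM-equivalents on an axis from 0, and bars give the mean ± SD. Gria1 sits higher in G37R, while Gria4, Grin3a, Grin3b and Gabra5 sit lower with no overlap. Glra1, with control libraries from 20.1 to 28.4 and G37R libraries from 11.7 to 19.5, did not pass the threshold.

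Genes that handle these receptors also changed in both directions in G37R motor neurons. Of 29 tested excitatory auxiliary and scaffold genes, 2 rose and 5 fell, beside 6.49% of all genes called higher and 6.37% called lower. Shank1, a scaffold of excitatory synapses, fell by 0.33 (adjusted p = 0.0168), Cacng2, an auxiliary subunit that brings AMPA receptors to the surface, by 0.47 (0.0232) and Neto1, a partner of kainate receptors, by 0.32 (0.0323). Camk2a, a kinase of the postsynaptic density, rose by 0.71 (0.0227) and Cacng3 by 0.32 (0.0233). Of 16 tested inhibitory auxiliary, scaffold and chloride transport genes, 1 rose and 2 fell, beside 12.9% of all genes called in either direction. Gabarapl2, which binds GABA-A receptors in transport, fell by 0.29 (0.0224), and Lhfpl4, which anchors them, by 0.27 (0.0444).

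In astrocytes at onset, no member passed limma's threshold, with 31 tested and 2 at an unadjusted p under 0.05, beside 2.34% of all 12466 genes called. Every other setting gave 0 as well. Grin1 had the largest excitatory value, 0.40 (SE 0.15, adjusted p = 0.192), which rested on G37R library 4 at 34.0, while the other G37R libraries ran from 19.1 to 20.9 and control from 15.4 to 19.8. Gabra4, one of the genes above cord in astrocytes, had control libraries from 10.5 to 13.8 with a median near 12.7 and G37R libraries at 10.1, 11.1, 11.2 and 9.35. The groups overlapped (-0.21, SE 0.093, adjusted p = 0.288). The other large values were -0.45 for Glra1, -0.25 for Grin3a and 0.18 for Gabra3, with limma's adjusted p between 0.391 and 0.497. No member had groups without overlap, against 5.24% of all genes. Neither list of partner genes had a call by limma, with 3 genes of each at an unadjusted p under 0.05. Summed microglia markers ran from 27.4 to 46.0 in control and from 88.85 to 106 in G37R astrocytes. Of the interneuron markers Slc32a1 and Penk were called higher and the others were not called. Of the oligodendrocyte precursor markers Olig2 alone was called, lower (51.81 in control, 29.31 in G37R). The part of these in the receptor values was not tested.

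In 8-month oligodendrocytes, at onset, no member passed either. There were 35 tested, 7 at an unadjusted p under 0.05 and 0.109% of all 11935 genes called by limma, and the other settings also gave 0. Of these 35, 31 had a positive change, with a median of 0.17 against 0.01 over all genes. Over the 6229 genes at or below cord in 8-month control oligodendrocytes, as most members were, the median was 0.07. It was -0.03 over the 5706 genes above cord. The control libraries that define this split are also those of the comparison. Grid1 (0.32), Gria2 (0.31), Grin1 (0.30), Glra1 (0.49) and Gabbr2 (0.31) were the largest, each with overlapping groups and adjusted p between 0.406 and 0.527. Gabrr2 had the largest negative change. It measured 7.53, 4.03, 4.80, 5.80 and 4.28 in control and 3.34, 3.72, 2.27 and 2.93 in G37R, the single member whose groups did not overlap, beside 4.43% of all genes (-0.62, SE 0.16, adjusted p = 0.285). Grm3 measured 37.6, 39.8, 38.6, 30.8 and 43.9 in control and 33.0, 35.9, 38.6 and 34.7 in G37R, within the spread of the controls (-0.09, adjusted p = 0.749). No partner gene was called by limma, of 27 excitatory and 15 inhibitory ones tested, with 3 of each at an unadjusted p under 0.05. Of the cell type markers Gfap alone was called, higher (136.5 in control, 208.1 in G37R). Summed interneuron markers overlapped, at 190 to 440 in control and 240 to 312 in G37R. The part of these in the receptor values was not tested.

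In 11-month oligodendrocytes, at the early symptomatic stage, most tested receptor genes were higher in G37R while Grm3 and Gabrr2 were lower. Of 35 tested members, 19 rose and 3 fell. Limma called 49% of all 11733 genes there, 26.1% higher and 22.9% lower, so receptor genes were not alone, and 14 members had groups without overlap beside 43.6% of all genes. Of 21 excitatory members 11 rose and 2 fell with a median change of 0.36, and of 14 inhibitory members 8 rose and 1 fell with a median of 0.57. The median over all genes was 0.0007.

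Among AMPA receptor genes, 3 of 4 rose. Gria1 measured 7.56, 7.68, 8.97, 10.9 and 12.1 in control and 14.9, 19.4 and 19.4 in G37R, with no overlap (0.86, SE 0.18, adjusted p = 0.00402). Gria2 measured 5.93, 5.21, 7.10, 10.01 and 9.70 in control and 9.66, 15.1 and 15.9 in G37R. Here the lowest G37R library overlapped the 2 highest controls (0.77, SE 0.22, adjusted p = 0.0157). Gria3 rose by 0.73 (adjusted p = 0.00722), and Gria4 did not pass (0.29). Grin1, the main NMDA receptor transcript of these cells, measured 54.3, 53.4, 56.3, 72.2 and 79.2 in control and 70.6, 110 and 101 in G37R (0.56, SE 0.17, adjusted p = 0.0204), with overlap. Grin2d rose by 0.45.

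Among kainate, delta and metabotropic receptor genes, calls went in both directions. The kainate receptor genes Grik2 and Grik3 rose by 0.36 and 0.52, and Grid1, a delta receptor that bridges synapses, by 0.50. Grm5, a group I receptor that raises intracellular calcium, rose by 0.66, and Grm8 by 0.43. Grik5, a high-affinity kainate receptor subunit, fell. It measured 13.0, 13.4, 13.4, 12.9 and 14.4 in control and 10.2, 11.5 and 11.8 in G37R (-0.25, SE 0.081, adjusted p = 0.0284).

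On the inhibitory side, 1 of 2 tested GABA-B genes and 1 of 3 tested glycine receptor genes rose, and the other calls were of GABA-A genes. Gabra5 measured 12.02, 11.8, 12.1, 13.6 and 14.6 in control and 15.8, 18.6 and 18.6 in G37R, without overlap (0.44, SE 0.086, adjusted p = 0.00361). Gabra3 rose by 0.57, the beta gene Gabrb2 by 0.56, Gabbr1 by 0.34 and the glycine receptor gene Glra2 by 0.58. By limma, Gabra2 (0.58, adjusted p = 0.0692) and Gabrg1 (0.59, adjusted p = 0.0649) did not pass, nor did Glra1 (0.26) and Glrb (0.14), the most abundant inhibitory member.

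Grm3 measured 35.6, 37.8, 35.9, 37.9 and 34.7 in control and 21.2, 22.8 and 20.8 in G37R. The 2 groups were far apart, with a change of -0.73 (SE 0.064, adjusted p = 0.000382). Gabrr2 measured 6.997, 5.88, 3.99, 5.49 and 10.7 in control and 2.61, 1.19 and 1.01 in G37R, also without overlap (-1.54, SE 0.28, adjusted p = 0.00269). Both passed under all 17 other settings run for this comparison, with Grm3 between -0.76 and -0.68 and Gabrr2 between -2.02 and -1.37.

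**Figure D4:**
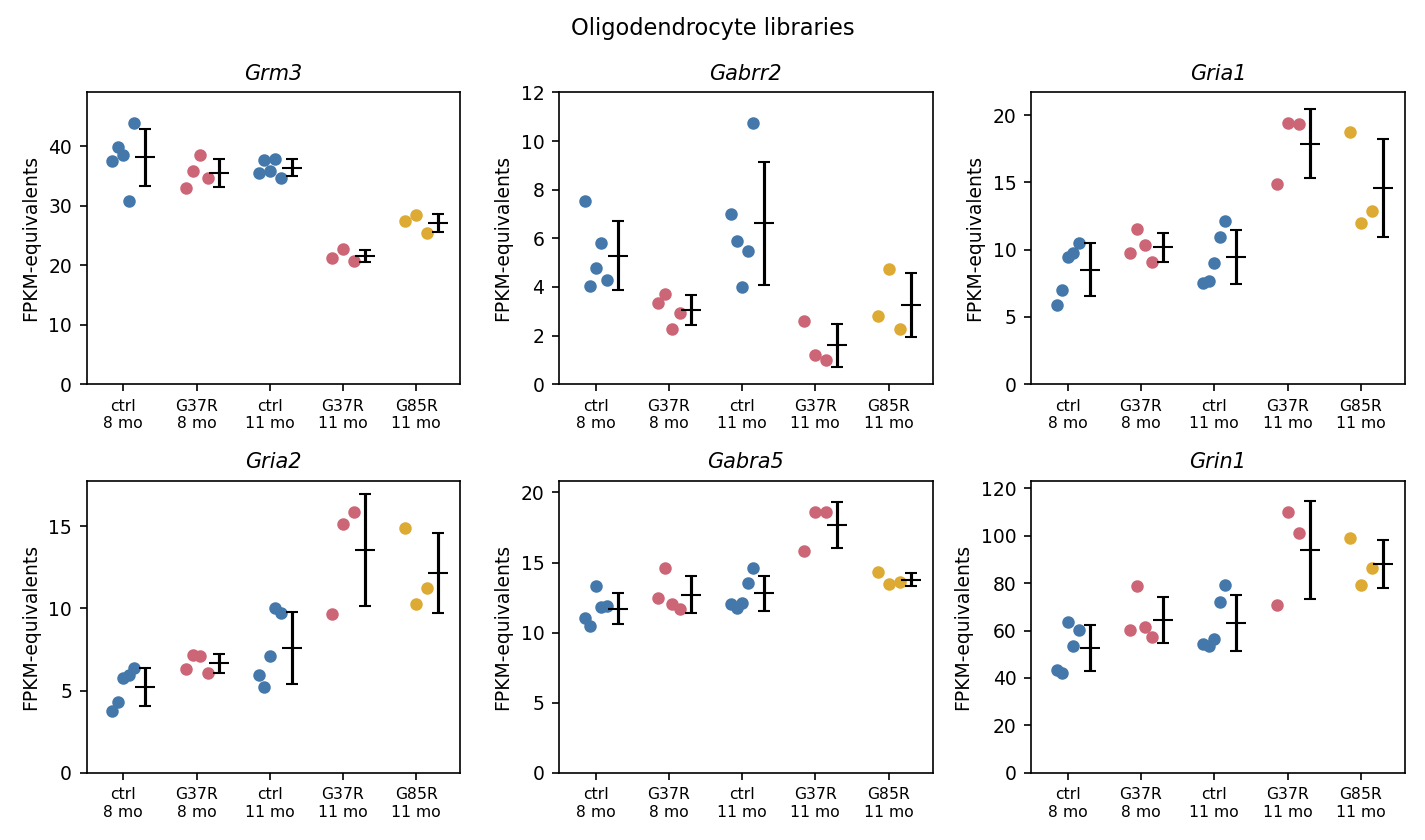
Each point is 1 oligodendrocyte library in FPKM-equivalents on an axis from 0, with bars for the mean ± SD, for control and G37R at 8 months and control, G37R and G85R at 11 months. Grm3 and Gabrr2 are lower in mean in both 11-month mutants, with G37R below G85R, while Gria1, Gria2, Gabra5 and Grin1 are higher in mean. No member passed the threshold in G85R against control, and Gabrr2 overlapped between those groups.

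The direction of the 11-month change ran with the level of the gene in control oligodendrocytes relative to cord at 8 months. This split was chosen after its values were seen. The 8-month control libraries that define it are not in the 11-month comparison. Of 33 tested members at or below cord in 8-month control oligodendrocytes, 19 rose and 1, Grik5, fell, with a median change of 0.47. The 2 members above cord, Grm3 and Gabrr2, both fell. The same split over all genes tested showed that 42% of 6146 genes at or below cord rose and 6.95% fell, while 8.7% of 5587 genes above cord rose and 40.4% fell. Median changes over these genes were 0.24 and -0.23.

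**Figure D5:**
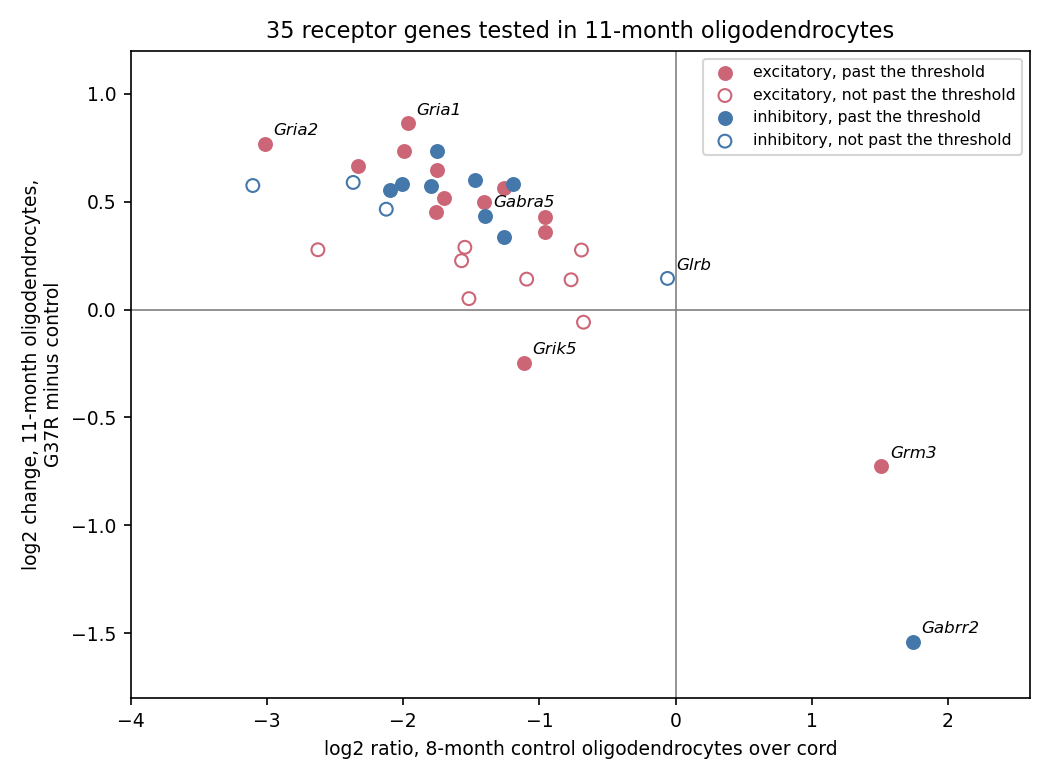
Each point is 1 of 35 tested receptor genes. The x axis gives the log2 ratio of 8-month control oligodendrocytes to cord. The y axis gives the log2 change of 11-month G37R against control. Glra1, with a ratio of -4.79 and a change of 0.26, lies beyond the left edge and is not drawn. Filled points passed the threshold. The 33 genes with a ratio below 0, Glra1 among them, run from -0.25 to 0.86. Grm3 and Gabrr2, right of 0, lie at -0.73 and -1.54.

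Markers of other cells moved in the same libraries. Interneuron markers summed to 212 to 292 in control and 343 to 450 in G37R, with 7 of 9 called higher, and Gad1 ran from 31.8 to 57.3 in control against 76.7, 111 and 106 in G37R. Motor neuron markers summed to 66.1 to 88.7 and 105 to 144, with 5 of 5 called higher. Microglia markers ran from 31.0 to 48.3 and from 95.9 to 218, and astrocyte markers from 4185 to 4539 and from 4970 to 5389. The astrocyte list was split, with Gfap, Aldoc and Aldh1l1 called higher and Glul called lower (3305 in control, 2631 in G37R). Aqp4, Gja1, Slc1a2 and Slc1a3 were not called. Oligodendrocyte precursor markers ran from 1332 to 1593 and from 823 to 1196. Olig1, Olig2 and Sox10 made up most of that sum and were lower in mean in G37R, with Olig1 and Olig2 called. Gpr17 (2.085 in control, 3.413 in G37R) and Pdgfra (1.012 and 1.724) went the other way and were not called. Of 8 tested oligodendrocyte markers, 4 were called lower. Neuronal and glial markers thus differed beside both the receptor genes that rose and the pair that fell, and their part was not tested. Without G37R library 2, or without library 3, 9 members passed, among them Gria1, Gria3, Grik3, Grm3, Gabra3, Gabra5 and Gabrr2, and without library 1 there were 26. Without control library 1, the one with Mbp listed at 0, 17 passed. The shares of all genes called without these libraries are not given here.

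Receptor partners were also called in both directions. Of 27 tested excitatory auxiliary and scaffold genes, 12 rose and 3 fell, beside 26.1% of all genes called higher and 22.9% called lower. Camk2a rose by 1.11 (adjusted p = 0.0018), and the postsynaptic scaffold genes Dlgap1, Dlg4, Grip2 and Dlg3 by 0.95, 0.70, 0.74 and 0.82. Of 15 tested inhibitory partners 9 rose and 3 fell. These counts stand in a comparison in which 49% of all genes were called, and nothing particular to the lists was tested. Kctd8, an auxiliary subunit of GABA-B receptors, rose by 0.77 (adjusted p = 0.00152), the gephyrin-binding Iqsec3 by 0.87 and the transport adaptor Trak1 by 0.46. Slc12a2, which carries chloride into cells, fell by 0.50 (adjusted p = 0.00305).

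Against the same 5 controls, no member passed in 11-month G85R oligodendrocytes, where limma called 0.00852% of all genes. There were 16 members at an unadjusted p under 0.05, 31 of 35 changes were positive, and the median was 0.33. The share of all genes at an unadjusted p and their median change are not given here. These counts therefore cannot be read as particular to receptor genes. Groups did not overlap for 7 members and for 22.5% of all genes. With sample weights 1 passed. Because both mutants share these controls, their values are given side by side. Grm3 measured 27.5, 28.5 and 25.5 in G85R, below every control library (-0.41, adjusted p = 0.0911), next to -0.73 in G37R. Gabrr2 measured 2.81, 4.75 and 2.26, with overlap with the controls (-0.82, limma's adjusted p = 0.108), next to -1.54. Of the partner genes none was called by limma, with 7 excitatory and 10 inhibitory ones at an unadjusted p under 0.05.

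Gria1 measured 18.7, 12.02 and 12.9 in G85R (0.57, adjusted p = 0.0978), and Gria2 14.9, 10.3 and 11.3 (0.64, adjusted p = 0.107). Grm5 (0.58) and Gabra2 (0.61) had limma's adjusted p of 0.102 and 0.129. For Gria1 and Gria2, library 1 was the highest G85R library, and it also had the most microglia markers, 373 against 37.99 and 60.9 in the others. Interneuron markers summed to 298 to 369 in G85R.

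Compared directly with G37R, no member passed in G85R, with 3 of 35 at an unadjusted p under 0.05 and 0.0426% of all genes called. With sample weights 12 passed, and the share of all genes called in that setting is not given here. Grm3 was higher in G85R in all 3 libraries than in any G37R library (0.32, SE 0.072, adjusted p = 0.191). Gabrr2 differed by 0.72 (adjusted p = 0.349), Gabra5 by -0.33 (adjusted p = 0.235, without overlap), Gria1 by -0.29 and Glra2 by -0.25.

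In 8-month whole cord 2 members fell and none rose, of 43 tested, beside 2.17% of all 13828 genes called and 0.296% called lower. Grin3b measured 4.49, 4.33, 4.47 and 4.31 in control and 3.51, 3.41, 3.13 and 3.68 in G37R, clearly apart (-0.29, SE 0.050, adjusted p = 0.0231). Grm3 measured 12.4, 13.1, 13.1 and 12.3 in control and 10.3, 10.6, 11.7 and 10.7 in G37R (-0.22, SE 0.044, adjusted p = 0.0356). In the control tables Grin3b was highest in motor neurons and Grm3 in oligodendrocytes. Each of the 25 tested excitatory members had a negative change, with a median of -0.08 against -0.01 over all genes, and 15 of 18 inhibitory ones did, with a median of -0.05. Of all 43, 12 had an unadjusted p under 0.05, and 6 had no overlap beside 9.94% of all genes.

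Other values in 8-month cord stayed below the threshold, among them Grin1 (-0.13, adjusted p = 0.0689), Grin2a (-0.14), Glra1 (-0.18) and Gabra3 (-0.08). Summed microglia markers ran from 251 to 312 in control and from 440 to 722 in G37R, with 5 of 8 called higher. Oligodendrocyte markers ran from 13040 to 15370 and from 12090 to 13280, and motor neuron markers from 154 to 243 and from 194 to 252. The part of these in the receptor values was not tested. Of 17 tested inhibitory partners, Kctd12, a GABA-B auxiliary subunit, rose by 0.21 (adjusted p = 0.0262), and limma called 0 of 31 excitatory ones, with 2 at an unadjusted p under 0.05. Both receptor calls were lost without control library 1, 3 or 4 or without G37R library 2, and 1 was lost without any of the other libraries.

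In 11-month cord no member passed, with 43 tested, 1 at an unadjusted p under 0.05 and 0.0217% of all 13839 genes called by limma, and every other setting gave 0. Gabrg1, the chromosome 5 gamma gene, measured 12.1, 11.5 and 12.1 in control and 10.4, 10.6 and 10.3 in G37R (-0.18, SE 0.054, adjusted p = 0.892). Grm4 (0.20), Grin2d (0.14), Gria4 (-0.15), Gabrg3 (-0.24) and Glra2 (-0.16) followed, also at an adjusted p of 0.892. Grin3b (0.04) and Grm3 (-0.04), the genes called at 8 months, overlapped between the groups, with Grin3b at 2.19, 3.96 and 3.23 in control and 2.54, 3.98 and 3.10 in G37R. The library labelled control 1, one of the 2 at odds with its sex label, had a summed microglia marker level of 1490 against 431 in G37R library 2. Limma called 0 of 31 excitatory and 0 of 17 inhibitory partners, with 0 at an unadjusted p under 0.05.

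Effects were then compared between cell types and stages as contrasts of the changes. Of 31 members tested in both, 0 differed between motor neurons and astrocytes, beside 2.83% of all genes called at the adjusted threshold. Of these members, 4 had an unadjusted p under 0.05. Between motor neurons and 8-month oligodendrocytes 0 of 34 differed, beside 1.15% of all genes called at the adjusted threshold. Of these 34, 14 had an unadjusted p under 0.05. Grin3a was nearest at -0.64 (SE 0.16, limma's adjusted p = 0.0604). Gabra5 and Gria4 were at -0.44 and -0.37, both with an adjusted p of 0.0782. Here 1 passed without the filter on low values and 3 with sample weights. Between astrocytes and 8-month oligodendrocytes 0 of 28 differed, beside 0.489% of all genes called at the adjusted threshold. Of these 28, 3 had an unadjusted p under 0.05. Shares of all genes at an unadjusted p are not given here.

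Between 11-month and 8-month oligodendrocytes 1 of 35 members differed in its G37R effect, beside 18.7% of all 11552 genes (9.41% lower). The G37R effect on Grm3 was lower at 11 months than at 8 months, with a difference of -0.63 (SE 0.12, adjusted p = 0.00356), and it passed in all 6 other settings. The count of members depended on the setting, with 2 at a pseudocount of 0.1, 5 with quantile normalization, 13 with the replicate block and 23 with sample weights. The shares of all genes called in those settings are not given here. Gabrr2 (-0.92, SE 0.33, adjusted p = 0.0612), Gria1 (0.61, adjusted p = 0.0693) and Gabra5 (0.33, adjusted p = 0.0764) did not pass. These ages also differ in sex makeup, since the 8-month libraries are male and the 11-month libraries of both sexes, so age and sex cannot be told apart across the tables.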

How the data were processed

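RNA-seq of 52 mouse libraries in 13 groups was used, with single-end reads of 50 nt made from poly(A) RNA, per the labels' protocols. TopHat2 2.0.8b, Cufflinks, Cuffdiff and mm9 are named in the submitters' processing notes, whose steps are not given in the sources used here. The authors deposited 6 tables of 23697 genes. The deposited 11-month cord values are FPKM. In the 5 remaining tables the deposited values carry the name FPKM but are a signal about 16774 times as high, by the median ratio of 8-month to 11-month cord over 13810 genes. They were divided by that factor, which is an assumption for the purified cells, and the design had assumed FPKM throughout. Depth in reads is unknown.

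Levels were taken as log2(value + 1). Genes whose mean over a table was 1 or more were tested in limma 3.58.1 (R 4.3.3) with an intensity trend and robust estimation, 2-sided, with Benjamini-Hochberg adjustment over all genes tested and a threshold of 0.05. The 11-month oligodendrocyte groups shared 1 fit. Shares of all genes called are at the adjusted threshold, and counts at an unadjusted p have no such share beside them. Tests stayed within a table, except for contrasts of changes on genes kept in both tables. The fit was tested on simulated data. Alternatives were a pseudocount of 0.1, no filter, quantile normalization, sample weights, the replicate number or sex as a term, and leaving out libraries. The design text speaks of biological replicates, but no label ties a library to an animal, so a p-value measures how libraries vary.

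The members and the lists of partner and marker genes were chosen with earlier results of these data known. Genes named are every member past the threshold, the 3 excitatory and 3 inhibitory members with the largest change in each comparison, the 3 leading members of each kind in each control table, the AMPA, NMDA, GABA-A alpha and glycine receptor genes in motor neurons, and at most 5 called partners per list. Some genes that this rule names are not reported here. A few others were named after their values were seen: Grm3 and Gabrr2 in tables where they were not called, Gabrr1, clustered GABA-A genes, the nearest uncalled members and the contrast values. Upstream sequences are from RefSeq (GRCm38.p6).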

Additional observations from a re-analysis of the deposited data

Results flagged for a closer look

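Of 71 group values tested for a library far from the rest, 4 were found, and chance gives about 1 in 20. In G37R motor neurons, Gria4 was 53.3 in library 3 and 59.1 to 59.8 in the others. In G37R astrocytes, Grin1 was 34.0 in library 4 and 19.1 to 20.9 in the others. In control astrocytes, Grin3a was 0.743 in library 5 and 1.53 to 1.94 in the others. In control 11-month oligodendrocytes, Grik2 was 2.93 in library 1, in which Mbp was listed at 0, and 3.56 to 3.74 in the others.

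The G37R effect on Grm3 differed between the ages of the oligodendrocytes by the test of the difference itself, at -0.63 on the log2 scale (limma, adjusted p = 0.00356). Grm3 was lower in 3 of 3 G37R libraries than in any control at 11 months, and the groups overlapped at 8 months.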

How the results depend on the processing

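Counts of called members stayed within 1.5 times the reported count except as follows. In motor neurons 0 passed without the filter on low values, 3 with the replicate block (Gabra5, Grin3a and Grin3b) and 0 without G37R libraries 3 and 4, and leaving out 1 library gave 0 to 8. With sample weights 1 passed in G85R against control and 12 in G85R against G37R. In 8-month cord 0 passed with the replicate block and 0 to 1 with 1 library left out. For the motor neuron minus oligodendrocyte difference 1 passed without the filter and 3 with sample weights. For the 11-month minus 8-month difference 2 passed with a pseudocount of 0.1, 5 with quantile normalization, 23 with sample weights and 13 with the replicate block. Leaving out 1 library gave 9 to 26 in 11-month G37R oligodendrocytes, 0 to 1 in G85R against control, and 0 to 0 in the astrocyte, 8-month oligodendrocyte, 11-month cord and G85R against G37R comparisons. Of the single-gene values, 781 kept direction and side, 103 lost the call, 9 gained it and 1 changed sign: Grm4 in 11-month cord, at -0.017 without the 2 controls at odds with their sex labels. The shares of all genes called in these settings are not given here, so the counts cannot be read as particular to receptor genes. Causes were not tested.

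Same-numbered libraries correlated above 0.1 in 0 of 4 pairs in motor neurons and 1 of 4 in astrocytes. The counts were 2 of 4 and 2 of 9 in 8-month and 11-month oligodendrocytes, and 0 of 4 and 1 of 3 in 8-month and 11-month cord. The highest value was 0.35, in 11-month oligodendrocytes. So few pairs cannot settle whether the replicate numbers pair the samples. Depth in reads is unknown, so low members (Grin2a, Grin2b, Gabrr1) carry no floor or interval.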
